A study of Mus musculus with 7 samples.

Results

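Arhgap36 and 9 genes of the cAMP-dependent protein kinase (PKA) and Hedgehog pathways were followed in pancreatic islets of mice aged 7 days. The set held 10 genes of the 49315 mouse genes in the count files, matched by symbol (Arhgap36, Prkaca, Prkacb, Prkar1a, Prkar2b, Gli1, Gli2, Gli3, Ptch1 and Smo), and each of the 10 was among the 19893 genes with enough counts to be tested. Control islets (3 pools) came from Nrf2lox/lox mice, in which both copies of the Nrf2 gene carry loxP sites, and the βNrf2KO islets (4 pools) came from mice in which Nrf2 was deleted in β-cells by Cre. The promoter that drives Cre is not given in the sources used here, nor is the sex of the mice. Both groups were 7 days old and received no treatment named in the labels. RNA of 5 animals was combined for every library, so a pool is the unit of replication and its value averages over animals. The series asks how Nrf2 supports growth of neonatal β-cells.

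PKA is a tetramer of 2 regulatory and 2 catalytic subunits. When cAMP binds the regulatory subunits, such as those encoded by Prkar1a and Prkar2b, the catalytic subunits, encoded by Prkaca and Prkacb, are set free and phosphorylate proteins that include the transcription factor CREB. In β-cells this route carries the incretin signal that raises insulin secretion. In the Hedgehog pathway the receptor Ptch1 holds the membrane protein Smo inactive until a ligand binds, and PKA phosphorylates the GLI transcription factors so that Gli3 and Gli2 are cut to repressors or degraded. The protein of Arhgap36 binds PKA catalytic subunits, blocks them and promotes their degradation, and it activates GLI factors without a ligand. Gli1 and Ptch1 are themselves switched on by GLI factors, and their RNA is the usual measure of pathway output.

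Arhgap36 was chosen because it was the 1 gene called higher in βNrf2KO islets by an earlier fit that held the pool number as a block. Its values are therefore a description of these libraries, given with no test. In that fit the difference was 1.18 ± 0.18 (SE) on the log2 scale. The gene next in order among those with higher values, just outside the threshold, was the glucose transporter Slc2a1 with 1.25 ± 0.20 (named after its values were seen). Without the block Slc2a1 differed by 1.22 ± 0.52. Its groups overlapped, with 54.6 CPM in control pool 1 and 38.2 CPM in βNrf2KO pool 4. The other 9 genes were listed for their function.

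Arhgap36 (ENSMUSG00000036198) lies on chromosome X from 49463945 to 49500244, plus strand, in GRCm38, with 3421 bases of exon in the annotation of the files. RefSeq places 2 transcription starts in the gene, 1 at its outer end and 1 within it, and the promoter windows of both are printed here because the deposited counts do not tell which start was used. Each window runs from 250 bases before to 50 bases after the start, plus strand, in GRCm38.p6. The windows are chrX:49463695-49463994 for the outer start and chrX:49470200-49470499 for the inner start.
Arhgap36 outer start: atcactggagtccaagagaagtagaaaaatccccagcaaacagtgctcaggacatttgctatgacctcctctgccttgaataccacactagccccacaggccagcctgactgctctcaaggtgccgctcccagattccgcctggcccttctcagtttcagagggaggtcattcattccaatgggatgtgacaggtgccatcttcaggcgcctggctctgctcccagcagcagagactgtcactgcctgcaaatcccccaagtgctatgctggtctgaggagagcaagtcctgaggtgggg
Arhgap36 inner start: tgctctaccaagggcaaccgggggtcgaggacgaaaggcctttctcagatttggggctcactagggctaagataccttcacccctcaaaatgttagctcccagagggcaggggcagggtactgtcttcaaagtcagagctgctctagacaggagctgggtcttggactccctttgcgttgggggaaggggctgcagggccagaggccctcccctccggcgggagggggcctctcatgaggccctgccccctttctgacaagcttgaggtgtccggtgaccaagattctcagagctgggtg
The letters of 3 motifs were searched on both strands of the promoter windows. These were TGACGTCA, the full cAMP response element bound by CREB, GACCACCCA, the GLI consensus, and TGACNNNGC, the core of the antioxidant response element bound by Nrf2 (the first and the last both begin with TGAC). None of the 3 was found in either window of Arhgap36. Over all 32851 RefSeq windows of the same length, 1.79% held the cAMP response element, 0.253% the GLI consensus and 12.4% the Nrf2 core. The windows of Arhgap36 held 3 and 7 CpG dinucleotides, against a median of 7.0 over all windows.

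Promoter windows were found for 9 of the 10 genes, 19 windows in all. Among them the full cAMP response element occurred only at Prkar1a, in 2 overlapping windows of neighbouring starts. The window in which the element begins 49 bases before the start is chr11:109650699-109650998 in GRCm38.p6, plus strand, shown because it joins a PKA subunit gene to the DNA element that PKA signalling acts through. Capitals mark the element.
Prkar1a: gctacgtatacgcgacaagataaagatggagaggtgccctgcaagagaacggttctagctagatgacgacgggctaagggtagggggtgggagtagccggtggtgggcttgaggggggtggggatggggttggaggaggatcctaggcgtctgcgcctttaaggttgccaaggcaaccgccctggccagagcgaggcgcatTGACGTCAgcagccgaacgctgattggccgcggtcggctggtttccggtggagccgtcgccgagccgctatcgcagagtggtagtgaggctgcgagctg
The Nrf2 core occurred in 1 of the 9 genes, at an inner start of Prkaca, and the GLI consensus in 0. A match in these letters describes the window and is not evidence of binding.

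Library facts bear on all values. The 7 pools held 18187382 to 25373105 counts, and genes of the mitochondrial genome took 14.6% to 51.8% of counts in control and 10.02% to 27.7% in βNrf2KO pools. Values are CPM (each gene's share of the library's counts, on the usual scale) after TMM scaling, which sets libraries to a common level for most genes, and RPKM (the same per kilobase of exon) where genes are compared with each other. Cre sequence was read at 23 to 73 counts in the βNrf2KO pools and 0 counts in each control pool. Nfe2l2, the Nrf2 gene itself, was read at 43.2 to 86.2 CPM in control and 57.8 to 67.4 CPM in βNrf2KO pools, which overlapped. Whole-gene counts include exons outside a deletion and other cells of the islet, so this does not check the deletion. Islet hormone genes were abundant in every pool (Ins2 at 8280 to 31800 CPM). Pooled tissue cannot tell more RNA per cell from more cells of a type. Of 73 genes examined singly, 40 had a difference smaller by over 1.5 times without control pool 2, against 1 to 9 genes without any other pool. Nothing in the labels says how the pools were drawn, so p-values measure the spread between pools.

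Arhgap36 was more abundant in all βNrf2KO pools than in any control pool. It was read at 21.9, 9.97 and 25.8 CPM in control pools 1, 2 and 4. In βNrf2KO pools 1, 2, 3 and 4 it was read at 51.3, 28.5, 62.1 and 45.5 CPM. Control pool 2 was the lowest and βNrf2KO pool 3 the highest of the 7, and the groups came closest between control pool 4 and βNrf2KO pool 2. The raw counts behind these values ran from 151 to 1325, so counting error is small beside the spread between pools. The group means were 19.2 ± 8.25 CPM (SD, n = 3) and 46.9 ± 14.0 CPM (SD, n = 4), and the fitted log2 difference over the 7 pools was 1.28 ± 0.33 (SE). A fold as large or larger in the same direction was fitted for 0.558% of all tested genes. Groups that do not overlap with βNrf2KO higher were seen for 3.19% of tested genes. Nothing is read from the place of Arhgap36 in either share, since it was chosen on this contrast.

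**Figure D1:**
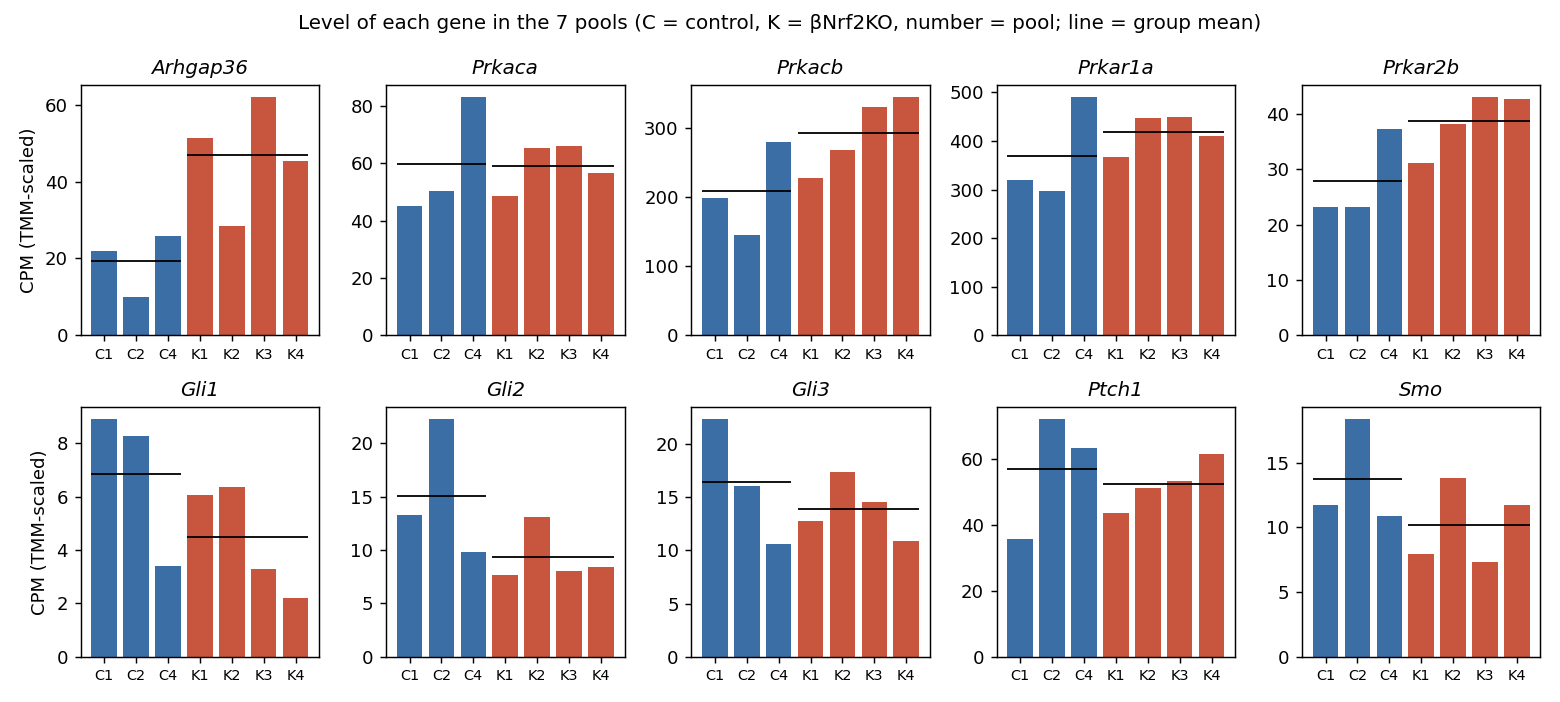
Bars give the TMM-scaled CPM of each of the 10 genes in control pools 1, 2 and 4 (blue) and βNrf2KO pools 1 to 4 (red), and lines the group means, with a separate axis from 0 for each gene. Only for Arhgap36 do all red bars stand above all blue bars (28.5 to 62.1 against 9.97 to 25.8 CPM).

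Between same-numbered pools, Arhgap36 was higher in βNrf2KO by 1.23, 1.51 and 0.82 log2 units in pairs 1, 2 and 4. A higher value in each of the 3 pairs was seen for 19.1% of tested genes. When each pool was left out in turn the fitted difference was lowest at 0.97, without control pool 2, and highest at 1.55, without control pool 4. Per length, Arhgap36 stood at 5.62 ± 2.41 RPKM (SD, n = 3) in control and 13.7 ± 4.10 RPKM (SD, n = 4) in βNrf2KO islets, the 69.6th and 88.0th percentiles of tested genes. The level was thus that of a clearly expressed gene in both groups. It amounted to 15.7%, 7.92% and 11.6% of the summed RPKM of the catalytic subunit genes Prkaca and Prkacb in control pools 1, 2 and 4. In βNrf2KO pools 1, 2, 3 and 4 the same ratio was 32.9%, 14.7%, 28.3% and 21.4%. In this ratio, which does not depend on library scaling, βNrf2KO pool 2 (14.7%) fell below control pool 1 (15.7%), so the groups overlapped.

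Some measures of the pools were set beside Arhgap36. The summed level of 10 β-cell markers was 16900 to 47900 CPM in control and 33800 to 46200 CPM in βNrf2KO pools, with no marker at 0, 8 of 10 fitted higher and 0 called. The 2 fitted lower were Ins1 (-0.66 ± 0.31) and Mafa (-0.78 ± 0.22), while Ins2 was higher (0.75 ± 0.36). Most of the sum was hormone RNA: Ins1, Ins2 and Iapp gave 7930, 29000 and 4120 of 42400 CPM in βNrf2KO pool 1. Control pool 4 had the highest sum of the 7 pools (47900 CPM), yet its Arhgap36 (25.8 CPM) was below that of every βNrf2KO pool. Control pool 2 was lowest both for this sum (16900 CPM) and for Arhgap36. It also had the highest mitochondrial share (51.8% of counts) and the lowest TMM factor (0.6248). With mitochondrial genes left out before scaling the log2 difference of Arhgap36 was 1.28. TMM scaling already allows for that share, so this fit could hardly differ and does not address what lay behind the share. Arhgap36 per 1000 CPM of β-cell markers was 0.805, 0.589 and 0.539 in control pools 1, 2 and 4. It was 1.21, 0.846, 1.35 and 1.27 in βNrf2KO pools 1, 2, 3 and 4, so the groups stayed apart on this scale. Nothing is read from this, since Arhgap36 was chosen on this contrast and the scale follows mainly hormone RNA. With the mean of these markers as a covariate the log2 difference was 1.07 ± 0.32, and with the mean of mesenchyme markers it was 0.89 ± 0.37.

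The gene is X-linked, and RNA of sex-linked genes differed between pools. Xist, the RNA made from the inactive X of females, was read at 2930, 73.1 and 2210 CPM in control pools 1, 2 and 4 and at 28.5, 1740, 115 and 1210 CPM in βNrf2KO pools 1, 2, 3 and 4. Ddx3y, a gene of the Y chromosome, was read at 0.341, 43.0 and 0.731 CPM in the control pools and at 39.9, 14.7, 23.4 and 32.7 CPM in the βNrf2KO pools. Ddx3y was thus near 0 in control pools 1 and 4 and well above it in control pool 2 and every βNrf2KO pool. Among the 3 pools with the lowest Xist, Arhgap36 was at 9.97 CPM in the control pool and at 51.3 and 62.1 CPM in the βNrf2KO pools. Among the other 4 it was at 21.9 and 25.8 CPM in control and at 28.5 and 45.5 CPM in βNrf2KO pools. With log2 CPM of Xist as a covariate the log2 difference was 1.34 ± 0.40. Neither the split nor the covariate matches the pools for sex. In the set of 4, Ddx3y was at 0.341 and 0.731 CPM in control and at 14.7 and 32.7 CPM in βNrf2KO pools. Pools with Ddx3y near 0 were all controls, so sex mix and genotype were partly confounded. The part of sex in the difference was not tested.

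Genes around Arhgap36 were read next. Within 1 Mb on either side lie 27 other annotated genes, of which 9 were tested, 6 fitted higher and 3 lower, and 0 of 9 passed the threshold. The background was 0.0% of all tested genes past it (edgeR quasi-likelihood test, adjusted p of 0.05). The nearest tested gene on the 3′ side, Igsf1, a membrane glycoprotein linked to thyroid hormone control, lies 282292 bases away. It was read at 17.9, 15.2 and 32.9 CPM in control and 32.3, 26.2, 38.3 and 35.4 CPM in βNrf2KO pools, which overlapped, and its log2 difference was 0.58 ± 0.26 (edgeR, adjusted p = 0.571). This was 0.37 without control pool 2, 1.0 without control pool 4 and 0.19 with mesenchyme markers as a covariate. Olfr1322, an olfactory receptor gene 384755 bases away, had low counts, 16 to 105 per pool. It was read at 0.897 to 1.99 CPM in control and 2.16 to 3.86 CPM in βNrf2KO pools, with no overlap (3.19% of tested genes were apart in this direction). The difference was 1.09 ± 0.39 (edgeR, adjusted p = 0.571). These 2 of 9 neighbours had unadjusted p under 0.05, beside 8.46% of all tested genes. On the 5′ side, Enox2, a cell-surface oxidase 175686 bases away, differed by -0.40 ± 0.30 and Gpr119, a receptor for lipid amides that raises cAMP in β-cells, by 0.47 ± 0.57. The differences of Rbmx2, Aifm1, Zfp280c, Slc25a14 and the predicted gene Gm15033 were 0.32, -0.03, -0.04, 0.00 and 0.05. Whether Arhgap36 differed from its neighbours was not tested.

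Related RhoGAP genes were read for comparison. Arhgap18 was read at 9.43 RPKM over the 7 pools, Arhgap28 at 2.29 and Arhgap6 at 0.741, and Arhgap40 did not pass the filter on low counts. Their log2 differences were -0.05 ± 0.17, 0.01 ± 0.20 and -0.29 ± 0.26 (edgeR, adjusted p = 0.925, 0.983 and 0.699). Each had groups that overlapped.

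The genes with a profile most like that of Arhgap36 were sought among 12573 others by the root-mean-square difference of log2 CPM over the 7 pools, after removal of each gene's mean. The nearest was Nceh1, which hydrolyses cholesterol esters, at 0.229 log2 units. Degs1, which makes ceramide from dihydroceramide, followed at 0.233, then Elovl7, which lengthens fatty acids, at 0.245. Ero1l, the oxidase of protein folding in the endoplasmic reticulum, was at 0.251, the magnesium transporter Nipa1 at 0.252 and Aga, a lysosomal amidase, at 0.271. All 7 genes had their lowest value in control pool 2 and their highest in βNrf2KO pool 3. Degs1 was read at 138, 62.2 and 146 CPM in control and 202, 166, 279 and 238 CPM in βNrf2KO pools, with no overlap. Ero1l did not overlap either, at 52.4, 17.4 and 42.5 CPM in control and 82.8, 74.6, 123 and 98.0 CPM in βNrf2KO pools. Of all tested genes 3.19% were apart in this direction, and the other genes nearest in profile overlapped. By the same measure Prkacb was the nearest of the other 9 genes (0.542, rank 554) and Gli1 the farthest (1.372, rank 12273). The search used the group contrast itself, so the differences of these genes are no support for that of Arhgap36.

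**Figure D2:**
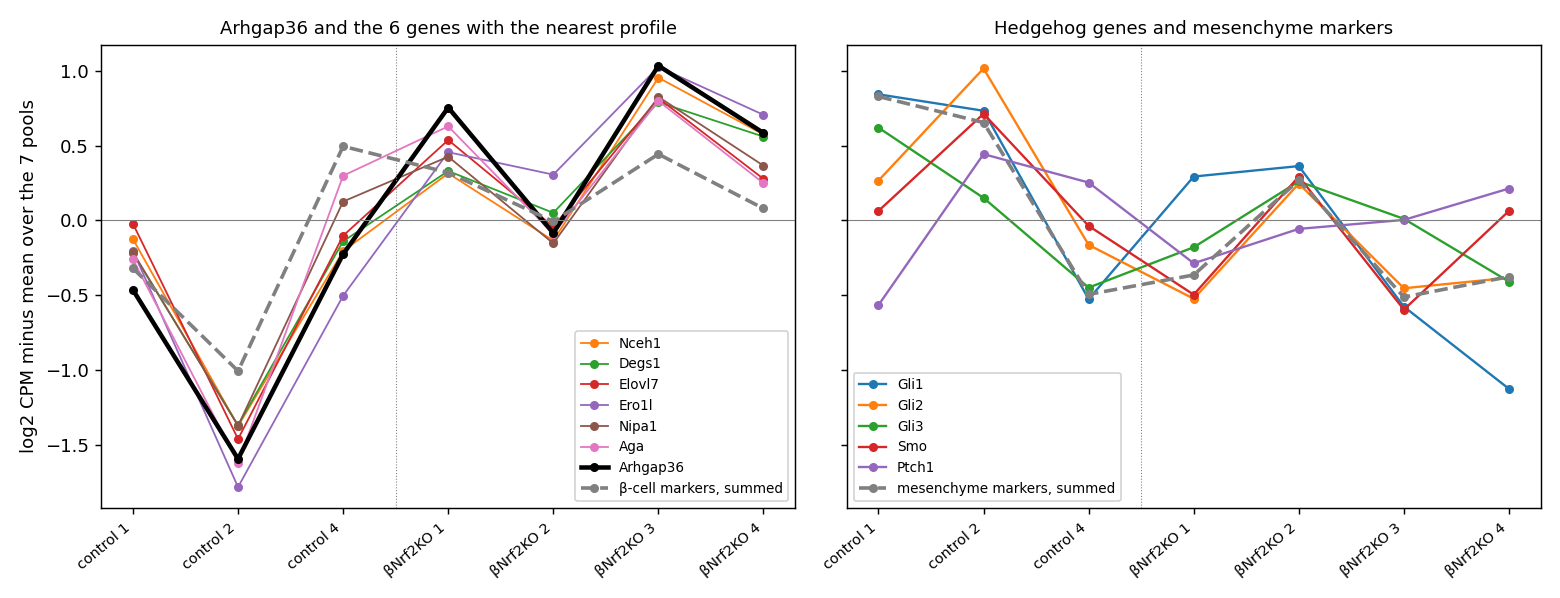
Lines give log2 CPM in each of the 7 pools minus the gene's mean over them, on the left for Arhgap36 (black), the 6 genes with the nearest profile and the summed β-cell markers (dashed), and on the right for 5 Hedgehog genes and the summed mesenchyme markers (dashed). Arhgap36 and its 6 nearest genes are lowest in control pool 2 and highest in βNrf2KO pool 3, and Gli1 and the mesenchyme sum (2020 and 1790 CPM) are highest in control pools 1 and 2.

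Of the 9 genes other than Arhgap36, 0 passed at an adjusted p of 0.05, while 3 were fitted higher (background 49.4%) and 6 lower (50.6%). Over all genes 0 of 19893 passed by edgeR (1683 at unadjusted p under 0.05, 8.46%), 2 by DESeq2 (0.0101%) and 14 (0.0704%) in the fit blocked by pool number, with 1 of these higher (0.00503%) and 13 lower (0.0653%), and of the 9 none was among these. At unadjusted p under 0.05 there was 1 gene with a higher value, Prkar2b, and 1 with a lower value, Gli2, against 3.23% and 5.23% of all tested genes. The 9 log2 differences ran from -0.70 to 0.50 with a median of -0.12, beside -0.01 over all tested genes.

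The catalytic subunits of PKA were read at nearly equal levels per length in control islets. Prkaca (chromosome 8, 83972993 to 83996443) stood at 23.9 ± 8.30 RPKM (SD, n = 3) in control and 23.8 ± 3.31 RPKM (SD, n = 4) in βNrf2KO islets. It was read at 45.2, 50.4 and 83.2 CPM in control and 48.6, 65.3, 66.0 and 56.6 CPM in βNrf2KO pools. Control pool 4 was the highest and control pool 1 the lowest, so the βNrf2KO values fell inside the control range, with a log2 difference of -0.01 ± 0.22 (edgeR, adjusted p = 0.988). Prkacb (chromosome 3, 146729574 to 146812990) was read at 199, 145 and 279 CPM in control and 228, 268, 331 and 345 CPM in βNrf2KO pools. The groups overlapped through control pool 4, and the log2 difference was 0.50 ± 0.23 (edgeR, adjusted p = 0.571). Each same-numbered pair had more Prkacb in the βNrf2KO pool, by 0.20, 0.88 and 0.31. Prkaca was higher in pairs 1 and 2 (0.11 and 0.37) and lower in pair 4 (-0.56).

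The balance of the catalytic genes was compared within libraries, where scaling cancels. The ratio of Prkacb to Prkaca RPKM was 1.25, 0.817 and 0.950 in control pools 1, 2 and 4. It reached 1.33, 1.16, 1.42 and 1.73 in βNrf2KO pools 1, 2, 3 and 4. The groups overlapped between control pool 1 and βNrf2KO pool 2, with means of 1.01 ± 0.222 (SD, n = 3) and 1.41 ± 0.238 (SD, n = 4). A total of 10 such ratios were computed after values were seen, and none was tested.

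Prkar1a (chromosome 11, 109649405 to 109669656), the most abundant of the 10 genes, encodes the regulatory subunit that restrains PKA in most tissues. It was read at 319, 296 and 491 CPM in control and 368, 448, 450 and 410 CPM in βNrf2KO pools, with a log2 difference of 0.18 ± 0.19 (edgeR, adjusted p = 0.747). Control pool 4 was above every βNrf2KO pool and the other controls below them all. Prkar2b (chromosome 12, 31958476 to 32061296), a regulatory subunit of neural and endocrine cells, was read at 23.1, 23.2 and 37.3 CPM in control and 31.2, 38.2, 43.1 and 42.8 CPM in βNrf2KO pools. It overlapped only through control pool 4 and βNrf2KO pool 1, and the difference was 0.48 ± 0.21 (edgeR, adjusted p = 0.571). The pairs differed by 0.44, 0.71 and 0.20.

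Within libraries the balance of Prkar1a and Prkar2b stood apart between groups. This is 1 of the 10 ratios computed after values were seen, none of them tested. The regulatory genes Prkar1b (14.7 RPKM in control) and Prkar2a (4.15 RPKM) are left out of it and of the sum below. The ratio of Prkar1a to Prkar2b RPKM was 11.7, 10.8 and 11.1 in control pools 1, 2 and 4. It was 9.96, 9.91, 8.82 and 8.10 in βNrf2KO pools 1, 2, 3 and 4, all below every control pool. Control averaged 11.2 ± 0.453 (SD, n = 3) and βNrf2KO 9.20 ± 0.901 (SD, n = 4). The summed regulatory genes Prkar1a and Prkar2b stood at 1.97 ± 0.0686 times the summed catalytic genes in control and 1.90 ± 0.163 times in βNrf2KO islets, which overlapped. β-cell markers moved with the subunit genes: with their mean as a covariate the log2 difference was 0.24 ± 0.13 for Prkacb and 0.27 ± 0.14 for Prkar2b. Without control pool 4 the differences of Prkacb and Prkar2b were 0.77 and 0.74, and without control pool 2 they were 0.29 and 0.35.

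**Figure D3:**
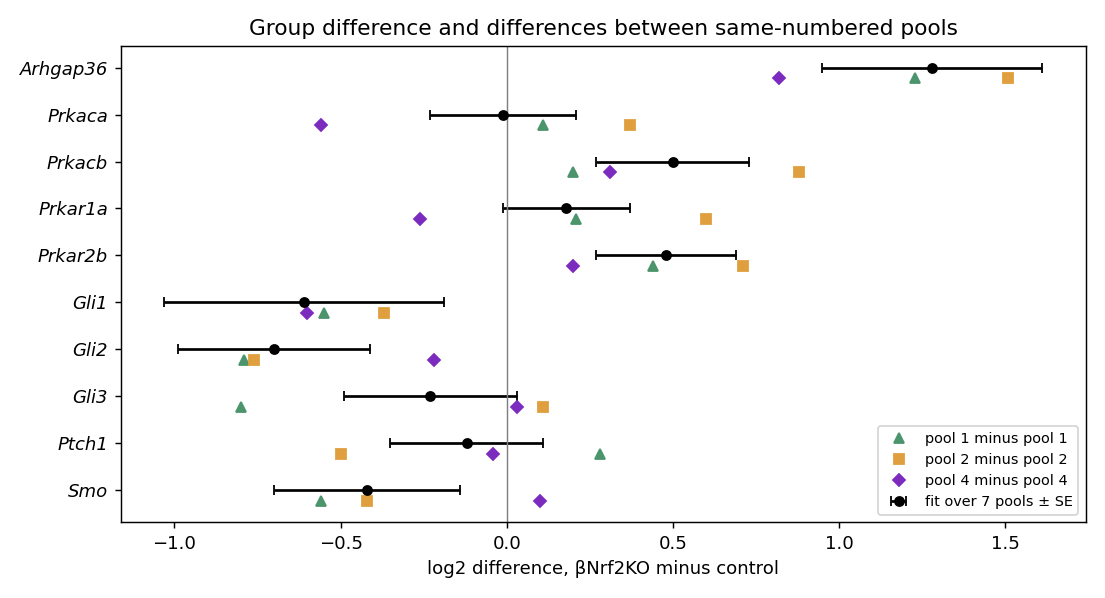
Black points give the fitted log2 difference (βNrf2KO minus control) of each gene with its SE over 7 pools, and coloured marks the difference between pools of the same number. Arhgap36, Prkacb and Prkar2b lie above 0 in all 3 pairs, Gli1 and Gli2 below 0 in all 3, and the other 5 change side between pairs.

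The other PKA genes were read from a list of 11 subunits and inhibitors, of which 0 passed the threshold, with a median log2 difference of 0.12. Of the 7 outside the 10 genes, Prkar1b, a regulatory subunit of neurons, was at 16.1 RPKM and differed by 0.22 ± 0.16, and Pja2, a ligase that degrades regulatory subunits, was at 24.0 RPKM and differed by 0.11 ± 0.18. The inhibitor genes Pkib and Pkig differed by 0.31 ± 0.33 and -0.23 ± 0.16, and Prkx, an X-linked catalytic subunit, by 0.12 ± 0.15 (edgeR, adjusted p from 0.634 to 0.839 for these 5). Pkig was at 25.5 to 30.7 CPM in control and 20.7 to 25.1 CPM in βNrf2KO pools, the 1 gene of the 11 whose groups did not overlap, beside 7.0% of all tested genes in either direction. Without control pool 2 it differed by -0.15.

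Genes that make, break and sense cAMP were tested as 31 genes, of which 0 passed, 11 were fitted higher and 20 lower, with a median of -0.10. Groups did not overlap for 1 gene with βNrf2KO higher and 1 with it lower, beside 3.19% and 3.81% of all tested genes. Adcy6, an adenylyl cyclase held back by calcium, was at 85.6 to 161 CPM in control and 78.5 to 84.2 CPM in βNrf2KO pools, with no overlap, and differed by -0.46 ± 0.21. Adcy5, a cyclase of glucose signalling in β-cells, differed by -0.58 ± 0.24, the phosphodiesterase Pde3a by -0.46 ± 0.20 and the cAMP sensor Rapgef3 by -0.78 ± 0.33 (edgeR, adjusted p = 0.571 for each of the 4). Without control pool 2, where Rapgef3 stood at 55.3 CPM against 15.8 to 25.2 CPM in the 6 other pools, its difference was -0.13, and that of Adcy6, also highest there, was -0.11. Without the same pool Adcy5 differed by -0.30 and Pde3a by -0.26. Gnai2, an inhibitory G protein, and Glp1r, the incretin receptor, were the most abundant per length (77.6 and 71.8 RPKM) and differed by 0.11 ± 0.16 and 0.22 ± 0.17. Among A-kinase anchoring proteins, which place PKA in the cell, 0 of 15 tested passed, 5 were fitted higher and 10 lower, with a median of -0.10. Akap11 differed by 0.38 ± 0.18, Gskip by 0.53 ± 0.25, Akap9 by -0.35 ± 0.18 and Akap13 by -0.34 ± 0.20 (edgeR, adjusted p from 0.571 to 0.601). Without control pool 2 Akap11, Akap9 and Akap13 differed by 0.23, -0.16 and -0.13, and without βNrf2KO pool 3 Gskip differed by 0.32. The anchors most abundant per length, Sphkap and Ezr, differed by 0.22 ± 0.20 and -0.24 ± 0.22.

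CREB factors and cAMP-responsive genes, the transcriptional arm of PKA, were read as a list of 18. Of 18 tested, 0 passed, 3 were fitted higher and 15 lower, with a median of -0.28, and at unadjusted p under 0.05 there were 1 higher and 4 lower. Over all tested genes 50.6% were fitted lower, and 3.23% and 5.23% were higher and lower at that p. Groups did not overlap for 0 of the 18 with βNrf2KO higher and 1 with it lower, beside 3.19% and 3.81% of all tested genes. Whether the list differs from other genes was not tested. Creb1, the factor that PKA phosphorylates, was at 71.6, 40.4 and 48.5 CPM in control and 81.0, 63.7, 93.6 and 87.9 CPM in βNrf2KO pools. It overlapped through control pool 1 and βNrf2KO pool 2 and differed by 0.61 ± 0.22. Sik1, a kinase induced by cAMP that feeds back on CREB coactivators, was at 182, 282 and 186 CPM in control and 174, 180, 119 and 118 CPM in βNrf2KO pools, with no overlap, and differed by -0.55 ± 0.22. The AP-1 genes Fosb and Junb differed by -0.94 ± 0.39 and -0.58 ± 0.24 (edgeR, adjusted p = 0.571 for each of the 4). Fos, the most abundant of the list per length, ran from 520 to 2260 CPM among control and 369 to 1460 CPM among βNrf2KO pools and differed by -0.34 ± 0.54 (edgeR, adjusted p = 0.836). Fosb was highest in control pool 2 (5450 CPM), without which its difference was -0.40. Sik1, also highest there, differed by -0.31 without that pool, and Junb by -0.37 without control pool 4. Fos, Fosb, Junb and the other early genes of this list also respond to many signals besides cAMP.

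**Figure D4:**
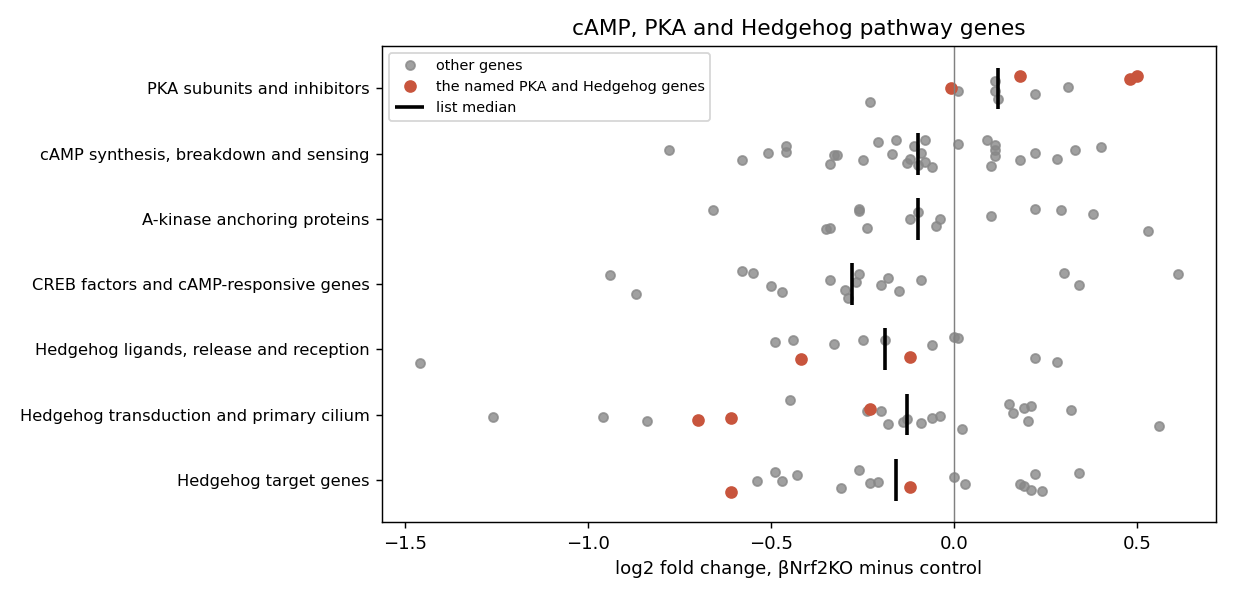
Each dot is 1 tested gene of a pathway list, placed by its log2 fold change (βNrf2KO minus control), with the PKA and Hedgehog genes of the 10 in red and the list median as a black bar. Medians run from -0.28 for CREB factors and cAMP-responsive genes to 0.12 for PKA subunits and inhibitors, and no dot passed the threshold.

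Hedgehog genes were read at low to moderate levels. Ptch1, the receptor and a GLI target, stood at 6.53 ± 2.17 RPKM (SD, n = 3) in control and 6.0 ± 0.845 RPKM (SD, n = 4) in βNrf2KO islets. Smo stood at 2.43 and 1.81 RPKM, Gli2 at 2.21 and 1.35, Gli1 at 1.87 and 1.22 and Gli3 at 1.71 and 1.45, in control and βNrf2KO islets respectively. In control islets each of these 4 differed from the next in that order by less than the SD between pools. The order over all 10 genes in control islets was Prkar1a first, then Prkaca and Prkacb, which did not differ beyond their spread, then Prkar2b, Ptch1 and Arhgap36, which did not either. In βNrf2KO islets Arhgap36 (13.7 RPKM) stood above Prkar2b (10.6 RPKM).

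Ptch1 (chromosome 13, 63508328 to 63573598) was read at 35.8, 72.3 and 63.3 CPM in control and 43.6, 51.2, 53.5 and 61.6 CPM in βNrf2KO pools. The βNrf2KO values lay inside the control range, with a log2 difference of -0.12 ± 0.23 (edgeR, adjusted p = 0.858). Smo (chromosome 6, 29735503 to 29761365), the transducer that Ptch1 holds back, was read at 11.7, 18.4 and 10.9 CPM in control and 7.92, 13.8, 7.36 and 11.7 CPM in βNrf2KO pools, and differed by -0.42 ± 0.28 (edgeR, adjusted p = 0.624), or -0.15 without control pool 2. Gli1 (chromosome 10, 127329889 to 127341589), the activator that is itself a target, was read at 8.92, 8.25 and 3.39 CPM in control and 6.05, 6.36, 3.28 and 2.2 CPM in βNrf2KO pools, from 60 to 157 counts. Control pool 4 was low, so the groups overlapped, and the difference was -0.61 ± 0.42 (edgeR, adjusted p = 0.631). Leaving out control pool 1 gave -0.37, leaving out βNrf2KO pool 4 gave -0.38, and leaving out control pool 4 gave -0.95. Gli1 was lower in each pair of pools, by -0.55, -0.37 and -0.60, as were 17.9% of tested genes.

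Gli2 (chromosome 1, 118834132 to 119053619), the main activator downstream of Smo, was read at 13.3, 22.3 and 9.84 CPM in control and 7.65, 13.1, 8.02 and 8.41 CPM in βNrf2KO pools. βNrf2KO pool 2 overlapped the controls, and the difference was -0.70 ± 0.29 (edgeR, adjusted p = 0.571), or -0.31 without control pool 2. The pairs differed by -0.79, -0.76 and -0.22. Gli3 (chromosome 13, 15463235 to 15730026), the main repressor, was read at 22.4, 16.1 and 10.6 CPM in control and 12.8, 17.4, 14.6 and 10.9 CPM in βNrf2KO pools, and differed by -0.23 ± 0.26 (edgeR, adjusted p = 0.762). Without control pool 1, its highest value, the sign turned (0.06). The ratio of Gli3 to Gli1 RPKM ran from 0.746 to 1.20 in control and from 0.808 to 1.89 in βNrf2KO pools, which overlapped.

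Mesenchyme markers moved with the GLI genes. All 9 markers of the list were fitted lower, 0 were called and none was at 0, and their summed level was 2020, 1790 and 807 CPM in control and 883, 1370, 797 and 876 CPM in βNrf2KO pools. Control pools 1 and 2 were high in this sum and control pool 4 was at the level of the βNrf2KO pools, as they were for Gli1. Per 1000 CPM of mesenchyme markers, Gli1 was at 4.42, 4.6 and 4.2 CPM in control pools 1, 2 and 4 and at 6.85, 4.66, 4.12 and 2.52 CPM in βNrf2KO pools 1, 2, 3 and 4. On this scale control averaged 4.41 ± 0.202 (SD, n = 3) and βNrf2KO 4.54 ± 1.79 (SD, n = 4). With the mean of mesenchyme markers as a covariate the log2 difference was 0.14 ± 0.39 for Gli1, -0.27 ± 0.29 for Gli2, 0.24 ± 0.24 for Gli3 and -0.15 ± 0.30 for Smo, and -0.29 ± 0.26 for Ptch1. The signs of Gli1 and Gli3 turned on that scale and those of Gli2, Smo and Ptch1 did not. All 7 markers of smooth muscle and pericytes were also fitted lower, with 0 called, where 0.0% of all tested genes passed. In the fit blocked by pool number, which called 0.0653% of tested genes lower, Myh11 passed (-1.07 ± 0.17, edgeR, adjusted p = 0.0482). Its groups did not overlap, beside 3.81% of tested genes apart in this direction. The sums of the 7 markers were 1000, 1610 and 583 CPM in control and 590, 788, 571 and 515 CPM in βNrf2KO pools. Like Gli2, Smo and Ptch1, this sum was highest in control pool 2, while the mesenchyme sum was highest in control pool 1. The part of these cells in the GLI differences was not tested.

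The genes with a profile nearest that of Ptch1 were the transcription factor Sp4 (0.060 log2 units, over 7 pools), Fbxw5 (0.083), Arhgap32 (0.085), Ing2 (0.088), Nol4l (0.090) and Syt15 (0.095), each with an overlap between groups. Gli1 was at 0.873 by this measure, rank 12227 of 12573.

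Hedgehog ligands were scarce. Shh had CPM of at most 0.0469 in any pool and Ihh at most 0.478, and neither passed the filter. Dhh, the ligand made by Schwann cells and endothelium, was at 0.795, 1.78 and 0.997 CPM in control and 0.375, 0.515, 0.563 and 0.257 CPM in βNrf2KO pools. It was lower in all 4 βNrf2KO pools than in any control (3.81% of tested genes were apart in this direction) and differed by -1.46 ± 0.50 (edgeR, adjusted p = 0.571), from 7 to 30 counts per pool. Markers of Schwann cells and neurons moved with it: 7 of 8 were fitted lower, 0 called, none at 0. Their sums were 91.6 to 147 CPM in control and 78.4 to 115 CPM in βNrf2KO pools. Stmn2 of this list passed in the fit blocked by pool number (-1.38 ± 0.19, edgeR, adjusted p = 0.0469). Endothelial markers went the other way: 6 of 6 were fitted higher, 0 called, with sums of 1000 to 1190 CPM in control and 1110 to 1430 CPM in βNrf2KO pools. The part of either cell type in the result was not tested. Of the 13 ligand and reception genes tested, 0 passed, 3 were fitted higher and 10 lower, with a median of -0.19. Among the coreceptors Cdon and Gas1, the most abundant of the list per length (6.69 and 6.52 RPKM over the 7 pools), the differences were 0.28 ± 0.18 and -0.44 ± 0.33 (edgeR, adjusted p = 0.623 and 0.654), or 0.17 and 0.01 without control pool 2.

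Of 23 tested genes of transduction and the primary cilium, where Hedgehog signalling takes place, 0 passed, 8 were fitted higher and 15 lower, with a median of -0.13. Groups did not overlap for 1 gene with βNrf2KO higher and 1 with it lower, beside 3.19% and 3.81% of all tested genes. Evc2, a ciliary partner of Smo, was at 2.67, 5.48 and 1.99 CPM in control and 1.5, 1.40, 1.13 and 1.54 CPM in βNrf2KO pools, with no overlap, and differed by -1.26 ± 0.38. Its partner Evc differed by -0.84 ± 0.43, the ciliary kinesin Kif7 by -0.96 ± 0.53 and the ciliary phosphatase Inpp5e by -0.45 ± 0.22 (edgeR, adjusted p from 0.571 to 0.585 for the 4). Control pool 2 was highest in all 4, and without it the differences were -0.73 for Evc2, -0.16 for Evc, -0.27 for Kif7 and -0.14 for Inpp5e. The kinases Gsk3b and Csnk1a1, which phosphorylate GLI factors after PKA, were the most abundant (34.4 and 32 RPKM) and differed by 0.32 ± 0.21 and 0.19 ± 0.16.

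Of 18 Hedgehog target genes tested, 0 passed, 8 were fitted higher and 10 lower, with a median of -0.16. The cyclins Ccnd2 and Ccnd1 were the most abundant per length (86.7 and 18.1 RPKM) and differed by 0.34 ± 0.20 and -0.26 ± 0.21, while Foxm1, a driver of mitotic genes, and the survival gene Bcl2 differed by -0.47 ± 0.19 and -0.54 ± 0.28 (edgeR, adjusted p from 0.571 to 0.678 for the 4). Without control pool 2 the differences of Bcl2, Foxm1, Ccnd1 and Ccnd2 were -0.16, -0.29, -0.09 and 0.17. Hhip, a decoy receptor and target of the pathway, was at 0.0535 to 1.68 CPM over the 7 pools. These were 1 to 36 counts per pool.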

How the data were processed

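Total RNA depleted of ribosomal RNA was sequenced from 7 islet pools. The deposited files hold whole-number counts per gene, made by the authors with featureCounts (Subread 1.5.2) after bcl2fastq 2.20, Trimmomatic 0.36 and STAR 2.5.2b, per the submitters' processing notes. Those notes name GRCm39, while the gene positions match GRCm38. The strand setting and the treatment of reads that map to several places are not given in the sources used here. Symbols came from a table of gene names (345 of 49315 IDs had no match), and the entry for Cre was left out of library sizes.

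The counts were tested with the edgeR 4.0.16 quasi-likelihood test (robust), TMM scaling and filterByExpr, in R 4.3.3, with Benjamini-Hochberg adjustment over 19893 genes at 0.05. SE is the log2 fold change divided by the square root of F. The code was tested on simulated data. Alternatives were other scalings and filters, a block for pool number, DESeq2 1.42.0, limma 3.58.1 (voom with quality weights) and each pool left out. Deviations of same-numbered pools correlated at r = 0.376, 0.229 and 0.323 (pools 1, 2 and 4, numbered as in the sample titles). Those of other pools ran from -0.353 to 0.241, the highest being control pool 4 with βNrf2KO pool 3. Same numbers were taken as pairs, but the labels state no pairing and pools 2 fell below that highest value. Differences and adjusted p-values come from the fit without a block unless the block is named. βNrf2KO pool 3 has no same-numbered control and adds nothing to the difference in the blocked fit. Covariates for mesenchyme markers, β-cell markers and Xist were added after the data were seen.

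The 10 genes and all lists were chosen with earlier results of these data known. Named in the text are the 10 genes, from each list up to 4 others with the smallest p and 2 with the highest RPKM, tested genes within 1 Mb of Arhgap36, 6 genes nearest in profile to Arhgap36 and 6 to Ptch1 (among genes with mean log2 CPM of at least 1), Xist and Ddx3y. Slc2a1, Shh, Ihh, Hhip, Arhgap40, Nfe2l2 and Ins2 fall outside this rule. A result that the rule names is not reported here. Promoter windows are RefSeq's.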

Additional observations from a re-analysis of the deposited data

Results flagged for a closer look

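Among the 73 genes whose values were examined by pool, 4 had a βNrf2KO pool that stood far from the other 3, by a gap above Dixon's critical value for 4 samples as a share of the group's whole range. Chance gives such a gap in about 1 in 20 groups of this size, so 4 of 73 is near that rate. None of the 10 genes was among them. Gnai2, an inhibitory G protein, was lowest in βNrf2KO pool 1 at 252 CPM (gap 0.913 of the range). Fos was lowest in the same pool at 369 CPM (0.892). Foxm1, a Hedgehog target, was highest in βNrf2KO pool 3 at 30.1 CPM (0.904). Arhgap28, a related RhoGAP gene, was lowest in βNrf2KO pool 4 at 11.6 CPM (0.887).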

How the results depend on the processing

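The 73 genes examined singly gave 1313 comparisons with an alternative setting, of which 1250 were counted as kept and 62 changed sign. Kept meant the same direction and side of the threshold, except for Arhgap36. For that gene it meant the same direction and a move smaller than its SE (0.33), whether or not it passed the threshold. Genes past the threshold numbered 0 with edgeR, 14 with pool number as a block, 2 with DESeq2 and 0 to 1 with each pool left out (1 without control pool 4). Each pathway list stayed at 0. The block changed no call among them other than that of Arhgap36, which was chosen by that fit. Arhgap36 moved to 0.89 with the mesenchyme covariate. Log2 differences that changed sign with limma-voom were 0.07 (Prkaca), 0.02 (Ptch1), 0.02 (Fos), 0.01 (Arhgap18), 0.01 (Fbxw5), 0.10 (Syt15), 0.02 (Zfp280c), -0.06 (Slc25a14) and -0.16 (Gm15033). With the block they were 0.02 (Syt15) and -0.11 (Slc25a14), with upper-quartile scaling -0.00 (Arhgap28) and -0.02 (Slc25a14), and with the filter at 1 CPM -0.01 (Slc25a14). With the mesenchyme covariate they were -0.00 (Prkar1a), 0.14 (Gli1), 0.24 (Gli3), -0.02 (Pkib), -0.10 (Pja2), 0.03 (Ezr), 0.07 (Zfp280c) and -0.12 (Slc25a14). With the β-cell covariate they were -0.04 (Pkib), -0.04 (Pja2), 0.04 (Ezr), 0.00 (Arhgap18), 0.02 (Zfp280c), -0.07 (Slc25a14) and -0.05 (Gpr119), and with Xist 0.06 (Prkaca). With pools left out, ranges that crossed 0 were -0.18 to 0.31 (Prkaca), -0.47 to 0.06 (Gli3), -0.37 to 0.07 (Ptch1), -0.01 to 0.33 (Pja2), -0.73 to 0.18 (Fos), -0.67 to 0.01 (Gas1), -0.11 to 0.08 (Arhgap18), -0.13 to 0.18 (Arhgap28), -0.40 to 0.03 (Sp4), -0.29 to 0.05 (Fbxw5), -0.33 to 0.09 (Arhgap32), -0.38 to 0.05 (Ing2), -0.23 to 0.14 (Syt15), -0.15 to 0.06 (Aifm1), -0.13 to 0.06 (Zfp280c), -0.15 to 0.16 (Slc25a14) and -0.33 to 0.50 (Gm15033). The cause was not tested. Counts of 7 to 30 for Dhh and 60 to 157 for Gli1 limit their precision.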
